A study of Homo sapiens with 2 samples.

Results

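The 10 genes TH, DDC, DBH, PNMT, GCH1, SLC18A1, SLC18A2, SLC6A2, SLC6A3 and MAOA make, store, take up and break down catecholamines, and they were examined for NeuroD1 peaks in IMR-32 cells. All peaks that overlapped the RefSeq body of a gene or lay up to 20 kb from either end were taken, which gave 2 peaks of the 6183 in the list. A peak is a stretch of the genome where more fragments were recovered with the antibody (ChIP-seq) than expected from the surrounding background. Both libraries of the series, 1 of NeuroD1 ChIP and 1 of input chromatin, came from IMR-32 cells with the genotype given as WT, and no treatment or time point is given in the labels. IMR-32 is an established neuroblastoma cell line with amplified MYCN. Only the ChIP peaks were analysed here. The antibody is one to NeuroD1 in the labels but one to H3K27Ac, a histone mark of active enhancers and promoters, in the study's methods for the assay. The study names its ChIP-seq dataset as one of NeuroD1 and lists its H3K27Ac data as a separate dataset made with another assay, CUT&Tag. The labels were followed here. A peak list holds no expression values, so the cell type could not be checked against its marker genes.

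Catecholamines are made from tyrosine in sympathetic neurons and in the chromaffin cells of the adrenal medulla. Tyrosine is hydroxylated to L-DOPA, decarboxylated to dopamine, and converted to noradrenaline inside secretory vesicles and to adrenaline in some cells. Neuroblastoma arises from the sympathetic lineage, and catecholamine metabolites in urine are used in its diagnosis. NeuroD1 is a basic helix-loop-helix factor that binds, with an E-protein partner, to E-boxes, which have the letters CANNTG.

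Of the 10 genes, DBH and SLC6A2 had 1 peak each, inside the gene body. TH, DDC, PNMT, GCH1, SLC18A1, SLC18A2, SLC6A3 and MAOA had no peak within 20 kb. By the same rule 29.7% of 20033 protein-coding genes had a peak (29.0% to 30.3%, exact Clopper-Pearson interval at 95%), so 2 of 10 was close to the background and is no result about these genes as a group. Of the 10 genes, 8 were between 20 kb and 120 kb long and included both genes with a peak, against a background of 31.0% of the protein-coding genes of that length. The other 2, TH and PNMT, were shorter than 20 kb, a length at which 25.7% of protein-coding genes had a peak. With a single ChIP library, the binding was not tested against replicate spread. All intervals cover counting error only. Those of fragments at the peaks take no account of the selection of peaks by the caller.

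The count was also set against its background under other rules. With 3 kb on each side the 2 genes were again DBH and SLC6A2 (background 21.4%), as they were in the gene body alone (16.0%), at 5-fold enrichment or more (27.6%), and with the summit, or at least 50% of the peak, in the window (29.6% for each). Over all RefSeq genes, non-coding ones included, 17.6% had a peak by the main rule. A −log10 q of at least 5 left SLC6A2 alone (background 24.4%). With 50 kb on each side PNMT and GCH1 were added, which made 4 of 10 (background 39.9%), and with 100 kb SLC18A1 made 5 of 10 (background 50.8%). The rules share peaks and genes, so these counts are not independent of each other.

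**Figure D1:**
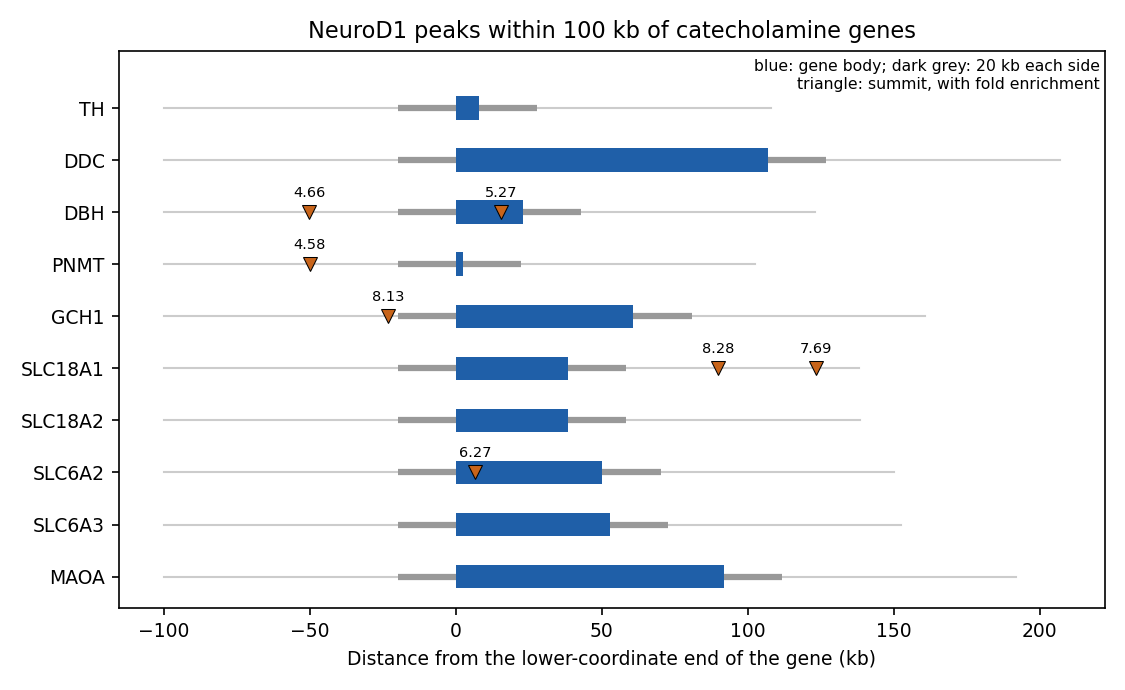
Position of every NeuroD1 peak within 100 kb of the 10 genes, where the x axis is the distance in kb from the end of the gene with the lower coordinate, the blue bar is the gene body, the dark grey line marks 20 kb on each side, and each triangle is a summit with its fold enrichment. The peaks at DBH and SLC6A2 lay inside the body, the peak at GCH1 lay just outside the 20 kb limit, and TH, DDC, SLC18A2, SLC6A3 and MAOA had no peak within 100 kb.

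To show what the promoters of these genes offer to a basic helix-loop-helix factor, the 250 bases before the listed start are given for DBH, which had a peak, and for DDC and MAOA, which lay farthest from one. They are RefSeq sequences of GRCh38.p14, written in the direction of the gene, and capitals mark CANNTG. The DBH window is chr9:133636113-133636362 on the forward strand, that of DDC, at the farther upstream of its 2 listed starts, is chr7:50565406-50565655 on the reverse strand, and that of MAOA is chrX:43656049-43656298 on the forward strand.
DBH: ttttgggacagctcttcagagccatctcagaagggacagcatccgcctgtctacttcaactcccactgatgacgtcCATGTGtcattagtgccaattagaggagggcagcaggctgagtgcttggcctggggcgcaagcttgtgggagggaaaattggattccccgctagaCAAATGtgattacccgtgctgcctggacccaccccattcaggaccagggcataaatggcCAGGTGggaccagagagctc
DDC: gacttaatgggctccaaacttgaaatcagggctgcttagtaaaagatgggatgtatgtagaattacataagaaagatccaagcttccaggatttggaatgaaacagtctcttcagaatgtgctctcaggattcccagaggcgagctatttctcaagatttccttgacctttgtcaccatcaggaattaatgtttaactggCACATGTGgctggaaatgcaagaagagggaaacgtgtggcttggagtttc
MAOA: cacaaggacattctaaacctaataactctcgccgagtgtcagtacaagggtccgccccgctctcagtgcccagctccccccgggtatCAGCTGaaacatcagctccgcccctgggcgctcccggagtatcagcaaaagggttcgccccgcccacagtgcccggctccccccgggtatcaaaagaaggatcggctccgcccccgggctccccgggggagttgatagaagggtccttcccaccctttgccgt

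CANNTG reads as the same pattern on both strands, so 1 search covers both. In DBH it began 174 bases before the start as CATGTG, 79 bases before it as CAAATG and 20 bases before it as CAGGTG. In DDC it occurred as the overlapping CACATG and CATGTG, 50 and 48 bases before the start, and in MAOA as CAGCTG, 163 bases before it. Of the 10 genes, DDC, DBH, SLC18A2 and MAOA matched an entry of the promoter table, with 5 windows of 300 bases in all, since DDC had 2. These windows run from 250 bases before to 50 after the start, and 3 of the 5 held CANNTG, against 68.7% of all 35116 windows of the same length. CAGATG or its complement CATCTG, a form often bound by NeuroD factors, was in 0 of the 5 windows and in 14.7% of all windows. CAGCTG was in the MAOA window and in 17.9% of all windows. The SLC18A2 window and the other DDC window held no CANNTG. No peak overlapped any of the 5 windows, and the nearest lay 15.5 kb away, at DBH.

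DBH encodes dopamine beta-hydroxylase, the vesicle enzyme that converts dopamine to noradrenaline. The gene lies on chromosome 9 from 133636363 to 133659329, and its peak lay from 133651925 to 133652070, with the summit at 133651952. At the summit the pileup of ChIP fragments exceeded the background of its surroundings 5.27-fold, after 1 was added to both, and this fold enrichment had a −log10 p of 6.76 and a −log10 q of 3.30. It rested on 10 ChIP fragments (95% exact Poisson interval 4.80 to 18.4) over a background of 1.05. For this background, fragment numbers between those bounds give 2.78-fold to 9.27-fold enrichment. This was a weak peak within the list. Its rank was 5248 of 6183 by fold enrichment and 5807 by q, and only 4.03% of the peaks had 10 or fewer fragments. Its width of 146 bp was the lowest in the list, a width shared by 8.25% of the peaks.

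The DBH summit lay 15.6 kb downstream of the listed start and 7.38 kb from the other end of the gene. Whether this position is exonic or intronic was not examined, because the gene table used gives gene bodies only. The peak overlapped no other gene. The antisense transcript DBH-AS1, which lies inside DBH, was 2.52 kb away, and SARDH, which encodes the mitochondrial enzyme sarcosine dehydrogenase, was 7.35 kb away. The next peak, 65.6 kb away, lay in FAM163B, 49999 bp upstream of the start of DBH, and had a fold enrichment of 4.66. Among the peaks within 1 Mb of the gene, 20 were counted for DBH, the highest number of the 10 genes, against a median of 5 for protein-coding genes.

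SLC6A2 encodes the noradrenaline transporter, which returns released noradrenaline to the sympathetic neuron and also carries the radiolabelled analogue used to image neuroblastoma. The gene lies on chromosome 16 from 55655988 to 55706192, and its peak lay from 55662602 to 55662876, with the summit at 55662670. The peak was enriched 6.27-fold, at a −log10 p of 8.91 and a −log10 q of 5.21. There were 12 ChIP fragments at the summit (95% exact Poisson interval 6.20 to 21.0), whose bounds give 3.48-fold to 10.6-fold enrichment over a background at the genome-wide level, the lowest in the list. It ranked 3787 of 6183 by fold enrichment, above the DBH peak, and 4496 by q.

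The SLC6A2 summit lay 6.68 kb from the end of the gene with the lower coordinate and 43.5 kb from the other end, and the peak was 275 bp wide. No other gene was overlapped. The nearest other gene was the long non-coding RNA gene LOC124903693, 6.49 kb away, which overlaps the lower end of SLC6A2. The site stood alone, and the next peak of the list was 356 kb away. The intervals of the summit fragments of DBH and SLC6A2 overlapped, so their order is not resolved at this depth, and both intervals include the median of 17 fragments over all peaks. The fold enrichment of each lay below the median of 6.79 over the list, in which 34.9% of peaks were lower than SLC6A2 and 15.1% were lower than DBH.

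**Figure D2:**
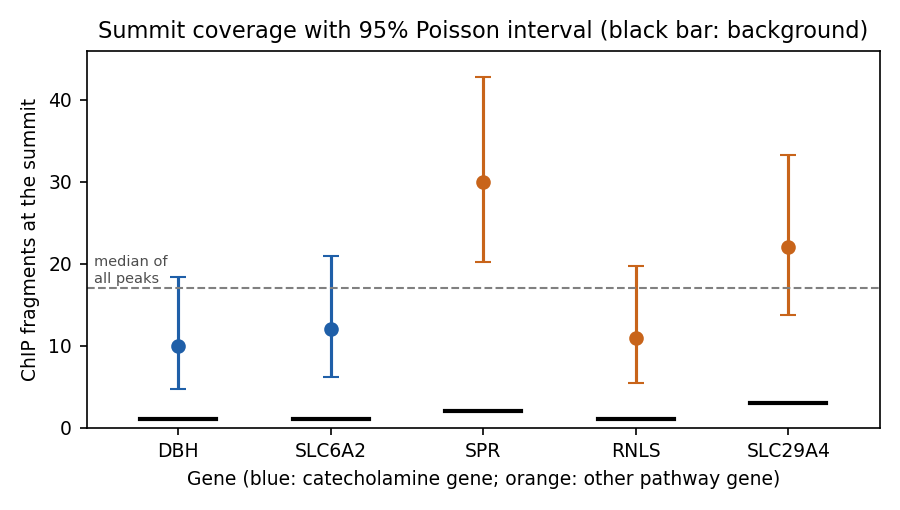
ChIP fragments (y axis) that cover the summit of each peak within 20 kb of a pathway gene (x axis), where points are fragments, error bars are 95% exact Poisson intervals, black bars are the local background and the dashed line is the median of 17 over all peaks. DBH and SLC6A2 had 10 and 12 fragments, while the interval of SPR, from 20.2 to 42.8, lay above the median.

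The other enzymes of the synthesis pathway had no peak within 20 kb. TH encodes tyrosine hydroxylase, the rate-limiting enzyme, and lies on chromosome 11 from 2163929 to 2171815. Its nearest peak was 989 kb away, in OSBPL5, with a fold enrichment of 6.78. On the other side the nearest was 1.24 Mb away, across an end of AP2A2, with a fold enrichment of 7.71. Of protein-coding genes, 90.2% lay nearer to a peak than TH, although 37 other protein-coding genes lay within 1 Mb of it. DDC encodes aromatic L-amino acid decarboxylase, which converts L-DOPA to dopamine, and lies on chromosome 7 from 50458442 to 50565405. Its nearest peaks were 2.42 Mb away, in SUN3 (8.67-fold), and 2.95 Mb away on the other side, far from any protein-coding gene (8.54-fold). No peak lay within 1 Mb of DDC, and 96.4% of protein-coding genes lay nearer to one. At both genes the list was empty over a long stretch, and the read coverage there was not examined.

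PNMT encodes the enzyme that methylates noradrenaline to adrenaline, and lies on chromosome 17 from 39668019 to 39670475. The nearest peak was 49963 bp away and weak (4.58-fold, −log10 q 3.23), and the protein-coding gene nearest to that peak was PPP1R1B, at 8651 bp, which encodes the dopamine-regulated phosphoprotein DARPP-32. On the other side the nearest peak was 310.2 kb away, across an end of the proteasome gene PSMD3, with a fold enrichment of 7.52.

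GCH1 encodes GTP cyclohydrolase, the first enzyme in the synthesis of tetrahydrobiopterin, the cofactor of tyrosine hydroxylase. It lies on chromosome 14 from 54842017 to 54902826 and came closest to the limit without passing it. A peak from 54818709 to 54818919 lay 23.1 kb from the gene and overlapped no gene, and GCH1 was the gene nearest to it. It was enriched 8.13-fold at a −log10 q of 9.39, on 16 ChIP fragments (95% exact Poisson interval 9.15 to 26.0). Both values were above those of the peaks inside DBH and SLC6A2, and the intervals of the fragments overlapped. On the other side the nearest peak was 149 kb away, across an end of MAPK1IP1L.

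Both vesicular transporters were without a peak within 20 kb. These proteins load monoamines into secretory vesicles, and SLC18A1 (VMAT1) is known from chromaffin cells while SLC18A2 (VMAT2) is used by neurons. At SLC18A1, on chromosome 8, the nearest peak was 51.3 kb away, with a fold enrichment of 8.28, and a second peak within 100 kb had a fold enrichment of 7.69. On the other side the nearest peak was 327 kb away, across an end of INTS10, a subunit gene of the Integrator complex. The fold enrichment of that peak, 34.7, ranked 17 of all peaks. SLC18A2 lies on chromosome 10 from 117241114 to 117279430. Its nearest peak was 262 kb away, in the antisense transcript EMX2OS and 1171 bp from EMX2, a homeobox gene of brain development, with a fold enrichment of 9.16. On the other side a peak in HSPA12A, 503 kb away, had a fold enrichment of 3.53. The peaks nearest to the transporters on either side thus ranged from 3.53-fold to 34.7-fold, and none lay at the genes themselves.

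SLC6A3 encodes the dopamine transporter, which takes dopamine back up into neurons, and lies on chromosome 5 from 1392794 to 1445440. Its nearest peak was 447 kb away, with a fold enrichment of 5.79, and the next on the other side was 3.28 Mb away, with a fold enrichment of 9.83. Of the 2 plasma membrane transporters, SLC6A2 had a peak called in its body. SLC6A3 had none within 100 kb, like 49.2% of protein-coding genes. With 12 fragments at the SLC6A2 summit and 1 ChIP library, a difference in binding between the 2 genes is not shown. MAOA encodes monoamine oxidase A, the mitochondrial enzyme that deaminates noradrenaline and serotonin, and lies on chromosome X from 43655006 to 43746817. It was the farthest from a peak of the 10 genes. The nearest was 2.57 Mb away, 659 bp from USP9X and with a fold enrichment of 5.31, and the next on the other side was 9.17 Mb away. Chromosome X held 27 peaks for 848 protein-coding genes, or 3.18 per 100 genes, against a range from 18.5 on chromosome 16 to 49.96 on chromosome 17 over the chromosomes of the other 9 genes.

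Measured by distance alone, the 10 genes lay at a median of 157 kb from the nearest peak, against a median of 95.8 kb over all protein-coding genes. The distance was over 100 kb for 5 of the 10 genes and for 49.2% of protein-coding genes, and it was over 1 Mb for 2 of the 10, DDC and MAOA, and for 9.64% of protein-coding genes. The number of peaks within 1 Mb had a median of 2.5 for the 10 genes and of 5 for protein-coding genes. The number of other protein-coding genes within 1 Mb also varied. MAOA and DDC, with 0 peaks in that range, had 5 and 7 such genes, while TH, SLC6A3 and SLC6A2, with 2 peaks each, had 37, 28 and 23. SLC18A2 had 3 peaks and 14 genes, GCH1 had 4 and 17, SLC18A1 had 6 and 6, PNMT had 10 and 52, and DBH had 20 and 33. The part of local gene number in these distances was not tested.

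To place the genes in their pathway, 14 further genes of cofactor supply, breakdown, low-affinity uptake and related monoamines were examined by the same rule, and 3 of them had a peak (background 29.7%). The strongest of all 5 pathway peaks was at SPR, which encodes sepiapterin reductase, the enzyme of the last step of tetrahydrobiopterin synthesis. It lay on chromosome 2 from 72887777 to 72888052, inside the gene (72887408 to 72892158), with its summit 504 bp downstream of the listed start. Enrichment was 10.1-fold at a −log10 q of 19.7, on 30 ChIP fragments (95% exact Poisson interval 20.2 to 42.8) over a background of 2.0, and the peak ranked 858 by fold and 676 by q. Of all summits in the list, 40.6% lay within 1 kb of a start in the promoter table, which is not complete. Among the 5 pathway peaks, SPR was the only one within that distance of a listed start.

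The second peak was in RNLS, which encodes the flavoprotein renalase. It had a fold enrichment of 5.79 and 11 ChIP fragments (95% exact Poisson interval 5.49 to 19.7). Its summit lay 356 kb downstream of the listed start of RNLS and 55.9 kb from the other end of this 412 kb gene. The peak also overlapped the non-coding gene LOC101929727. The third lay 5.97 kb outside SLC29A4, which encodes the plasma membrane monoamine transporter, enriched 5.64-fold at a −log10 q of 7.88 on 22 ChIP fragments (95% exact Poisson interval 13.8 to 33.3), where the background was raised to 3.0. The values of RNLS were close to those of DBH and SLC6A2, and all 3 peaks ranked below that of SPR on both measures.

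No peak was found within 20 kb of the other tetrahydrobiopterin genes, which are PTS, QDPR, PCBD1 and GCHFR, at distances of 289, 299, 202 and 159.8 kb. CYB561, the vesicle membrane cytochrome that supplies electrons to dopamine beta-hydroxylase, lay 104 kb from a peak across an end of DCAF7. The breakdown gene MAOB, the neighbour of MAOA, lay 2.68 Mb from the same peak near USP9X. The low-affinity transporter SLC22A3 lay 379 kb from a peak across an end of IGF2R.

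**Figure D3:**
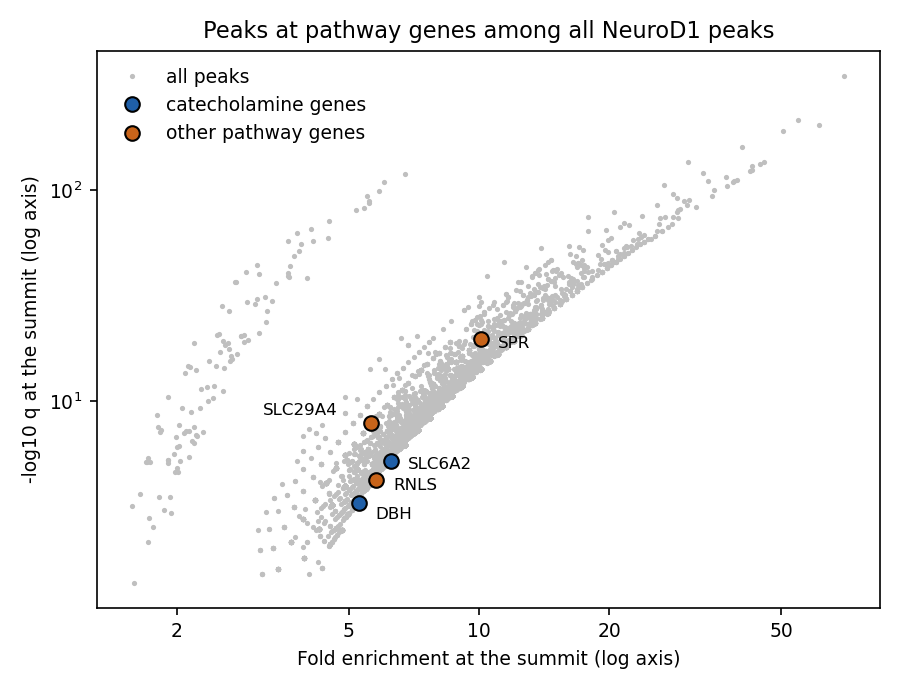
Fold enrichment against −log10 q at the summit, both on log axes, for all 6183 peaks (grey), the 2 peaks at the catecholamine genes (blue) and the 3 peaks at other pathway genes (orange). DBH (5.27, 3.30) and SLC6A2 (6.27, 5.21) lie in the lower part of the main cloud, and SPR (10.1, 19.7) lies higher.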

How the data were processed

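Peaks of 1 NeuroD1 ChIP library were analysed. Per the labels' processing notes, the submitters aligned reads to hg38 with BWA 0.7.17 and called peaks with MACS2 2.2.7, whereas the names in the peak list say macs3. Neither the control nor the q threshold is given in the sources used here. The authors deposited for each peak a fold enrichment (the ratio of pileup to background at the summit, with 1 added to each), a −log10 p and a −log10 q. A score (10 times −log10 q, without decimals) and a last column (fold enrichment per bp of width) were also deposited and not used.

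Peaks were joined to RefSeq genes of GRCh38.p14, the same build as hg38, and all 10 genes matched by symbol. The total depth is unknown. Summit fragments and background were solved from the fold enrichment and −log10 p under the Poisson upper tail. A fragment weight of 0.98 was found from the peak list itself, with fragments within 0.02 of a whole number, and 6182 of 6183 peaks had 1 solution. On 996 peaks simulated under the same model and weight, 100% of fragment numbers were recovered. That run checks the arithmetic only and cannot show that the model holds for the deposited values. Background is in the scaled units of the pileup. The genes named are the 10 genes, 14 further pathway genes, and the genes at or nearest to their peaks and flanking peaks. The other genes within a few kb of the DBH and SLC6A2 peaks were named after their values were seen. Genes and lists were chosen with earlier results of these data known, and nothing here is independent of that choice. Alternatives were stricter peak limits, other distances, and other overlap rules. Peak sequences were not analysed here, and 1 further gene of the planned list is not reported here. The software was Python 3.11.15 with matplotlib 3.10.9, scipy 1.17.1, pandas 2.3.3 and numpy 2.4.6.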

Additional observations from a re-analysis of the deposited data

How the results depend on the processing

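The 2 genes with a peak, DBH and SLC6A2, were the same with a fold enrichment of at least 5, with 3 kb on each side, with the summit in place of the interval, with at least 50% of the peak in the window, and in the gene body alone, the last chosen after seeing the data. With a −log10 q of at least 5, 1 gene and 1 peak (SLC6A2) were left. With 50 kb on each side there were 4 genes and 5 peaks, and with 100 kb there were 5 genes and 7 peaks, as longer windows make possible. The background of 29.7% was 24.4% with a −log10 q of at least 5, 27.6% with a fold enrichment of at least 5, 21.4% with 3 kb, 39.9% with 50 kb, 50.8% with 100 kb and 17.6% over all RefSeq genes. In alternatives chosen after seeing the data it was 16.0% in the gene body alone, 31.0% for genes of 20 kb to 120 kb and 25.7% for genes under 20 kb. The rank of the SLC6A2 peak by q stayed within 1.5 times of that by fold enrichment. The count of further pathway genes fell from 3 to 2 in both alternatives tried. SPR and SLC29A4 were left with a −log10 q of at least 5, and SPR and RNLS with 3 kb on each side. No paired analysis was possible because the design has no second ChIP library. With 10 and 12 fragments at the summits and unknown total depth, a gene without a peak is not shown to be unbound.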

Other observations

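The genes of the related monoamines serotonin and histamine had no peak within 20 kb, at 0 of 4 genes, against 29.7% of protein-coding genes. With only 4 genes, this count is no result about them as a group. These 4 are among the 14 further pathway genes, of which 3 had a peak. TPH1 and TPH2, the tryptophan hydroxylases of peripheral tissues and of neurons, lay 349.6 kb and 147 kb from the nearest peak. That nearest to TPH2 was in TRHDE, which encodes an enzyme that breaks down thyrotropin-releasing hormone, with a fold enrichment of 12.8. The serotonin transporter gene SLC6A4 lay 56.3 kb from a peak of 9.16-fold that was 94 bp from BLMH. HDC, the histidine decarboxylase gene, lay 89.3 kb from a peak across an end of GABPB1 with a fold enrichment of 6.12.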
